A study of Homo sapiens with 4 samples.

Results

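The 7 genes described here, GPRC5A, LETM1, IFRD2, MIX23, TFPI2, CPA4 and NRG1, were lower in confluent than in sparse human embryonic kidney cells that had received control siRNA. They are 7 of 18852 genes named on the array, and they are covered by 13 of its 48803 probes with values. They were selected on their measured log2 difference between confluent and sparse cells, a large fall under either of the siRNAs used, so their density differences are given below as a description, with no test. The study grew HEK293 cells, an established human embryonic kidney line, and transfected them with 100 pmol of control siRNA or of siRNA against CDC73 (hCdc73 in the labels). Cells meant to be sparse were replated 24 hours later onto dishes of 100 mm, and cells meant to be confluent onto dishes of 35 mm, for another 24 hours before harvest. The 4 groups were control siRNA sparse, CDC73 siRNA sparse, control siRNA confluent and CDC73 siRNA confluent, and each had 1 Illumina bead array. All groups shared the line, the percentage of fetal bovine serum, an siRNA transfection at the same dose and the time from replating to harvest. With 1 array a group, no difference between 2 arrays has a replicate check, and the labels leave unstated whether each dish had a transfection of its own.

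Parafibromin, the product of CDC73, is part of the PAF1 complex, which accompanies transcribing RNA polymerase II. Cells that meet their neighbours in culture often slow their growth, and genes for ribosome production and targets of growth signals are then often lower. Growth itself was not measured here, and the 7 genes have varied roles. NRG1 is a growth factor that binds the receptors ERBB3 and ERBB4. GPRC5A is an orphan G protein-coupled receptor that retinoic acid induces. TFPI2, a Kunitz-type serine protease inhibitor, and CPA4, a zinc carboxypeptidase, are secreted proteins. LETM1 is an inner membrane protein of mitochondria with a role in cation and proton exchange, and MIX23 belongs to the cysteine motif proteins of the mitochondrial intermembrane space, a family best known from yeast. IFRD2 binds ribosomes and holds them inactive, a role known from rabbit reticulocytes.

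Total signal lay between 22948071 (CDC73 siRNA confluent) and 28273404 (control siRNA confluent). A probe was detected on an array when fewer than 1% of 452 probes for olfactory receptor genes, taken as not expressed, were as bright (detection p under 0.01), which put the limit at an intensity between 103 and 123. The single probe for CDC73 was undetected throughout, with intensities of 72.3 (control siRNA) and 83.5 (CDC73 siRNA) for sparse and 98.3 and 90.0 for confluent cells, so the knockdown could not be checked and the siRNA groups rest on the labels. Of 7 genes usually seen in HEK293 cells, 5 were detected on every array, among them VIM and CDH2, while the neuronal filaments NEFM and INA were not. Among 6 fibroblast markers between 1 and 3 were detected, COL1A1 on every array, with a summed intensity of 663 to 896. The sum was 15628 to 24900 for the HEK293 genes, of which VIM and CDH2 were the brightest on every array. These sums were not used to tell cell types apart. Of the haematopoietic markers PTPRC, CD3E and HBB were not detected on any array and CD14 was on all 4. Of 3 endothelial markers, VWF was detected on all 4 arrays, with intensities of 131 to 238. PECAM1, at 101 to 156, was detected on all but the confluent array with CDC73 siRNA. CDH5 was not detected on any array. The part of these markers in the results below was not tested.

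The stretch before the start site is shown for 4 of the genes, so that the letters of genes chosen for one density difference can be set side by side. The sequences are from RefSeq (GRCh38.p14), and 4 of 6 members looked up had an entry. Each runs 5′ to 3′ on the gene's strand over the 250 bases before the start, with matched motifs in capitals. IFRD2 lies at chr3:50292430-50292679 (minus strand), MIX23 at chr3:122383232-122383481 (minus), TFPI2 at chr7:93890754-93891003 (minus) and CPA4 at chr7:130292911-130293160 (plus).
IFRD2: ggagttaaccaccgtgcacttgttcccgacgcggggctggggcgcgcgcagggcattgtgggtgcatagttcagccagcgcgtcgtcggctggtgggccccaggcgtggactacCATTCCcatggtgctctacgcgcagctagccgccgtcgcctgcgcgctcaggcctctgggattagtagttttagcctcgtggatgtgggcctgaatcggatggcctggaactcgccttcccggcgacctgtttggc
MIX23: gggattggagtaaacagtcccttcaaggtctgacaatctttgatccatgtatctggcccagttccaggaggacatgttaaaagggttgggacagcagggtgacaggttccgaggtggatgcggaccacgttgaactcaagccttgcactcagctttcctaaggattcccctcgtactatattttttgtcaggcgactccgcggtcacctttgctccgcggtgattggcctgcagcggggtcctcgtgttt
TFPI2: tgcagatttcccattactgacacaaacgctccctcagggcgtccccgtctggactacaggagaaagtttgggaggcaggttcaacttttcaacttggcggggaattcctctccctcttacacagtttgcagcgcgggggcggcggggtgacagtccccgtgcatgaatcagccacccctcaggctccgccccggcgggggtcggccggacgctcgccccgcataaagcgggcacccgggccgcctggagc
CPA4: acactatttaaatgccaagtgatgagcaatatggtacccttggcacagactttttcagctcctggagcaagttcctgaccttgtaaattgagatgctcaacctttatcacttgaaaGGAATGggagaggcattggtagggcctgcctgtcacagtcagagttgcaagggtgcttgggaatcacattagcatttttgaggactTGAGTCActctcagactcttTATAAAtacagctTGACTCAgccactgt

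Motifs were searched as letters. They were CACGTG (the E-box, the same on both strands), TGACTCA or TGAGTCA (AP-1, both strands), GGAATG or CATTCC (the TEAD core, both strands) and TATAAA (the TATA box, gene strand only), and none overlapped another. The CPA4 window held TGAGTCA at bases -48 to -42, TGACTCA at -15 to -9, GGAATG at -134 to -129 and TATAAA at -28 to -23, counted back from the start. IFRD2 held CATTCC at -136 to -131. The MIX23 and TFPI2 windows held none of these letters. Among 27305 gene promoters of the same length, 4.16% held an AP-1 match, 11.9% a TEAD match, 6.49% an E-box and 7.17% a TATA box. The GC content was 44.4% for CPA4, 53.2% for MIX23, 64.4% for TFPI2 and 65.2% for IFRD2, against a median of 58% over all promoters. A match of letters is a description of the window and not a binding site.

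After background correction, all 7 genes were at least 2-fold lower in confluent than in sparse cells with control siRNA, whereas with CDC73 siRNA 3 of 7 were, namely GPRC5A, LETM1 and IFRD2. With background left in, 2 of 7 passed 2-fold with control siRNA, GPRC5A and MIX23. The background was 1.64% of 10244 genes measured with control siRNA and 3.88% of 10509 with CDC73 siRNA, and 0.571% of 9990 genes were lower by this much under both siRNAs. Nothing is read from the members' counts, since this contrast chose them. On the log2 scale after background correction and quantile normalization, the members lay between -1.82 and -1.16 with control siRNA, with a median of -1.36, and between -2.35 and 0.14 with CDC73 siRNA, with a median of -0.79. The median over all genes was 0.02 and -0.02. In such bulk RNA, fewer cells with a transcript and less of it per cell cannot be told apart. As a measure of error within the arrays, probe pairs of the same gene gave an SD per probe of 0.29 with control siRNA and 0.33 with CDC73 siRNA over 1641 genes with exactly 2 detected probes.

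**Figure D1:**
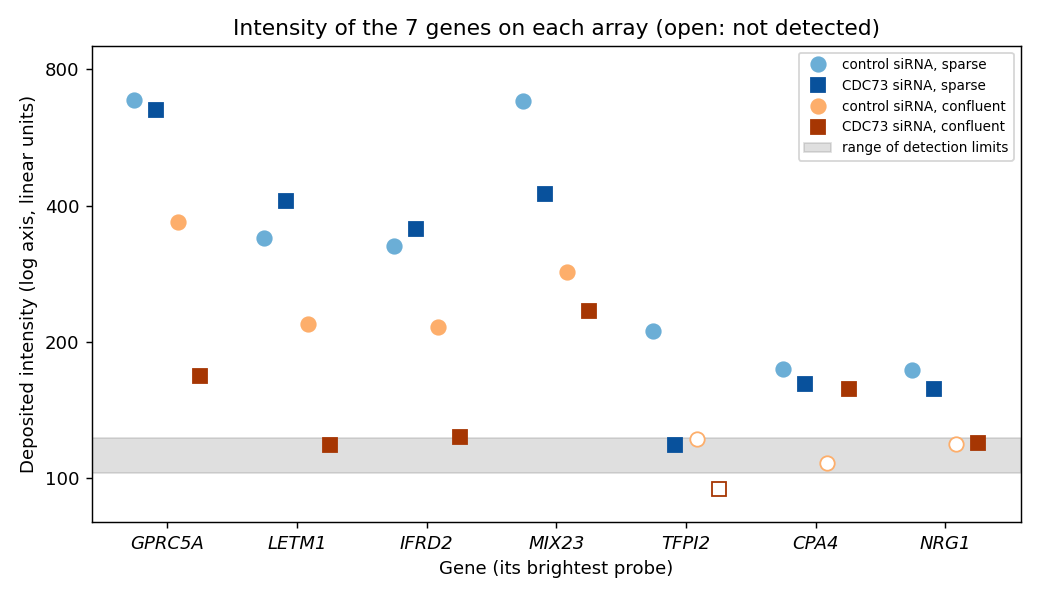
Deposited intensity (log axis) of the brightest probe of each gene on the 4 arrays, with open symbols where it was not detected and a grey band for the range of detection limits, 103 to 123. GPRC5A, LETM1, IFRD2 and MIX23 were detected on all arrays, and TFPI2, CPA4 and NRG1 fell into or below the band in confluent cells with control siRNA.

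GPRC5A, the retinoic acid-induced receptor, had intensities of 685 (control siRNA) and 651 (CDC73 siRNA) in sparse cells and of 368 and 168 in confluent cells. Both sparse arrays were the highest, and the confluent array with CDC73 siRNA was the lowest. The density difference on the log2 scale was -1.36 with control siRNA, 2.57-fold lower, and -2.17 with CDC73 siRNA, 4.51-fold lower. In order from the largest fall, GPRC5A was gene 39 of 10244 with control siRNA and gene 6 of 10509 with CDC73 siRNA. Of 8 alternative settings, 5 could change the values of a gene with 1 detected probe, and GPRC5A stayed at least 2-fold lower under both siRNAs in all 5. Its log2 differences in these lay from -1.29 to -1.14 with control siRNA and from -2.38 to -1.76 with CDC73 siRNA.

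LETM1, the mitochondrial inner membrane protein, had intensities of 340 (control siRNA) and 410 (CDC73 siRNA) in sparse cells and of 219 and 118 in confluent cells. The order matched that of GPRC5A except that the sparse array with CDC73 siRNA was the higher of the sparse pair. The density difference was -1.20 with control siRNA and -2.35 with CDC73 siRNA, a 5.11-fold fall. That was the largest of the 7 with these settings, while GPRC5A fell further with an offset of 50, in the authors' log2 table or with background left in. Only 2 of the 452 olfactory receptor probes were as bright as LETM1 in confluent cells with CDC73 siRNA, where it stood little above the limit of 103. Without background correction the difference there was -1.67, and with control siRNA it was -0.91.

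IFRD2, the ribosome-binding protein, had intensities of 325 (control siRNA) and 355 (CDC73 siRNA) in sparse cells and of 216 and 124 in confluent cells. The order of the arrays was that of LETM1. The density difference was -1.16 with control siRNA and -1.98 with CDC73 siRNA, or 2.23-fold and 3.96-fold lower. Again 2 of the 452 olfactory receptor probes were as bright on the lowest array. With control siRNA, 1 of the 5 settings that could change it, background by maximum likelihood, kept the fall at 2-fold or more, and the value went up to -0.87 without background correction.

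MIX23, the intermembrane space protein, had intensities of 681 (control siRNA) and 425 (CDC73 siRNA) in sparse cells and of 286 and 235 in confluent cells. The sparse array with control siRNA stood above the other three. The density difference was -1.82 with control siRNA, 3.53-fold lower and gene 8 of 10244 from the largest fall, and -0.79 with CDC73 siRNA, 1.73-fold lower and gene 844 of 10509. The fall with control siRNA passed 2-fold in all 5 settings that could change it.

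**Figure D2:**
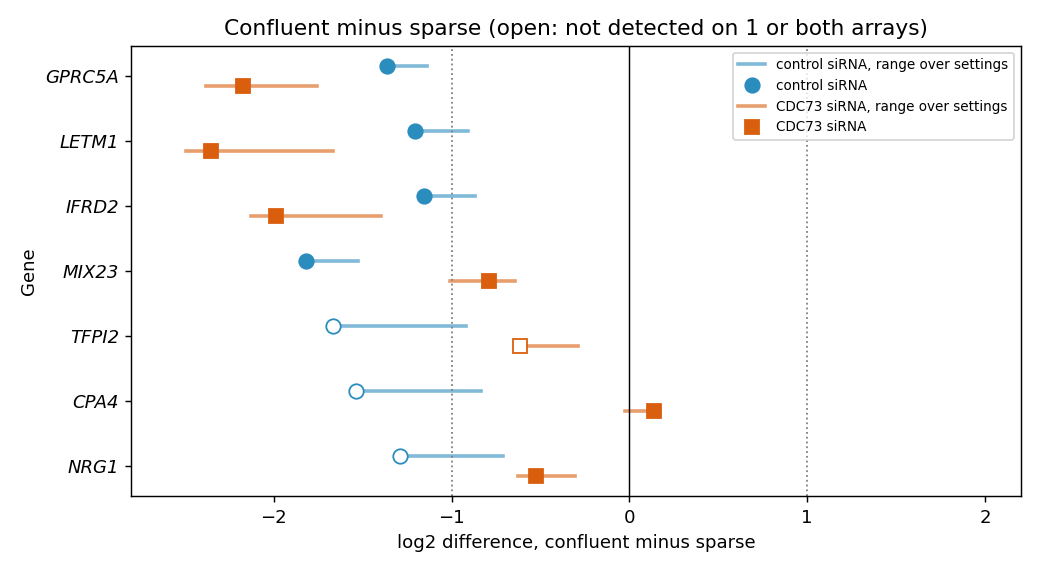
Log2 difference between confluent and sparse cells for each gene with control siRNA (blue circles) and CDC73 siRNA (orange squares), with lines for the range over 8 alternative settings, dotted lines at 2-fold and open symbols where 1 array did not detect the gene. GPRC5A, LETM1 and IFRD2 fell further with CDC73 siRNA, and MIX23, TFPI2, CPA4 and NRG1 further with control siRNA.

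TFPI2, the Kunitz inhibitor, had intensities of 212 (control siRNA) and 119 (CDC73 siRNA) in sparse cells and of 122 and 94.9 in confluent cells. It was detected on the sparse arrays and on neither confluent array. A bound replaces the fold where 1 array did not detect a gene, with the dim array set to its detection limit, or to the dim probe's own value where that was higher. Such a bound holds for the background-corrected values only and not over other settings. On that scale TFPI2 was at least 3.15-fold lower in confluent cells with control siRNA and at least 1.24-fold lower with CDC73 siRNA, the values being -1.66 and -0.61 as log2 differences. With control siRNA the difference was -0.99 with background left in and -0.92 in the authors' log2 table, both short of 2-fold, and with CDC73 siRNA it was -0.29 in each.

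CPA4, the secreted carboxypeptidase, had intensities of 175 (control siRNA) and 161 (CDC73 siRNA) in sparse cells and of 108 and 157 in confluent cells. The confluent array with control siRNA stood alone at the bottom and did not detect it. After background correction CPA4 was at least 2.36-fold lower with density under control siRNA. The log2 difference was -0.83 with background left in and -0.86 in the authors' log2 table, short of 2-fold. With CDC73 siRNA the density difference was 0.14, and it lay between -0.03 (the authors' log2 table) and 0.14 over the alternatives, so its direction was not settled. The fall by which CPA4 was chosen was therefore seen with control siRNA only, and the difference between the siRNAs was not tested.

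NRG1, the ErbB ligand, had 7 probes, of which 1 was detected on any array. That probe, ILMN_1737252, had intensities of 173 (control siRNA) and 157 (CDC73 siRNA) in sparse cells and of 119 and 120 in confluent cells. Both sparse arrays stood above both confluent ones, and the confluent array with control siRNA did not detect it. After background correction NRG1 was at least 2.33-fold lower with density under control siRNA, and its log2 difference was -0.52 with CDC73 siRNA. Under control siRNA the difference was -0.72 with background left in, -0.71 in the authors' log2 table and -0.89 with an offset of 50, all short of 2-fold. The other 6 probes lay between 59.6 and 96.0, below the limit on every array, and so gave no fold. Among them was ILMN_2298888, annotated to the same transcript as the detected probe, with intensities of 67.2 and 72.1 in sparse and of 69.0 and 59.6 in confluent cells. What is said of NRG1 thus rests on 1 probe of 7.

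**Figure D3:**
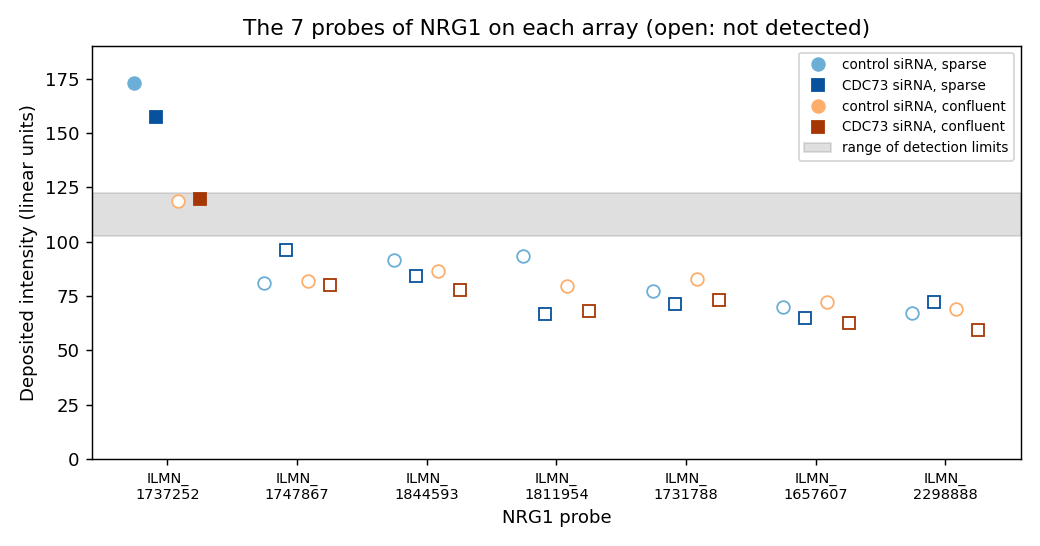
Deposited intensity (linear axis) of the 7 NRG1 probes on the 4 arrays, with open symbols where a probe was not detected and a grey band for the range of detection limits. ILMN_1737252 reached 173 and 157 in sparse cells, and the 6 other probes lay between 59.6 and 96.0.

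The siRNA contrast did not choose the genes, but it shares all 4 arrays with the density differences that did. For the 7 genes its test is thus not independent of the choice. The undetected value of CPA4 in confluent cells with control siRNA, for example, entered both. The siRNA contrast was fitted over both densities with limma on all 4 arrays, with density as a second term. That leaves 1 residual degree of freedom, namely the disagreement of the siRNA effects between densities. The fit called 443 of 10763 genes at an adjusted p under 0.05, or 4.12%, and none of the 7. It called 138 genes with the arrays scaled to a common median and 0 with no detection filter, where 1963 of 18474 genes had an unadjusted p under 0.05. It gave every gene the same standard error, 0.28 on the log2 scale, so a gene whose effects at the densities disagree was not given a wider interval of its own. The p-values set each effect against a spread pooled over all genes, that of the disagreement between densities. With no replicate array, they do not measure variation between cultures of the same group.

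TFPI2 had the largest siRNA effect, at -0.85 on the log2 scale (95% interval -1.40 to -0.29), with a limma adjusted p of 0.0592, which did not pass. Its values on both confluent arrays were below the detection limit. CPA4 was at 0.65 (0.10 to 1.20, adjusted p 0.217) and GPRC5A at -0.52 (-1.07 to 0.03, adjusted p 0.407). The others were IFRD2 at -0.30 (-0.85 to 0.25), LETM1 at -0.30 (-0.85 to 0.25), MIX23 at -0.26 (-0.81 to 0.29) and NRG1 at 0.16 (-0.39 to 0.71), with adjusted p from 0.748 to 0.908. Each interval that spans 0 leaves room for an effect of either sign. Over the 8 alternatives, the adjusted p of TFPI2 lay between 0.0530 and 0.380, and none of the 7 passed in any of them.

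At each density alone the siRNA effects have no test. In sparse cells 1 of 7 genes differed by 2-fold, TFPI2, which was 2.59-fold lower with CDC73 siRNA, against a background of 3.91% of 10182 genes. MIX23 was at -0.77 on the log2 scale there, NRG1 at -0.23, CPA4 at -0.19, GPRC5A at -0.11, IFRD2 at 0.11 and LETM1 at 0.28. The SD per probe for this comparison was 0.25, so GPRC5A, IFRD2, CPA4 and NRG1 lay within 1 SD of 0. Both TFPI2 intensities in sparse cells were detected, at 212 and 119, but without background correction the difference was -0.85 and in the authors' log2 table -0.83, short of 2-fold.

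In confluent cells 1 of 7 genes passed 2-fold after background correction, CPA4, which was at least 2.28-fold higher with CDC73 siRNA, against a background of 5.74% of 10497 genes. The CPA4 difference was 0.80 with background left in, 0.71 in the authors' log2 table and 0.99 with an offset of 50, short of 2-fold. NRG1 was at least 1.38-fold higher on the background-corrected scale only, with a log2 difference of 0.22 in the authors' log2 table. Its deposited intensities there were nearly equal, at 119 with control siRNA and 120 with CDC73 siRNA. GPRC5A was at -0.92, LETM1 at -0.87 and IFRD2 at -0.71, while MIX23 was at 0.26, which turned to -0.20 when the arrays were scaled to a common median. That scaling moved the median of all genes in this comparison to -0.40, and relative to it MIX23 was at 0.20. TFPI2 was below the limit on both arrays and has no fold, though its detection p was under 0.05 on both. The SD per probe was 0.32. For 5 of 7 genes the sign of the siRNA effect differed between the densities, as it did for 43.4% of 9916 genes. Density and siRNA differences share arrays, so a low value on 1 array enters both. The density differences chose the genes, so nothing is read from the count of signs.

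**Figure D4:**
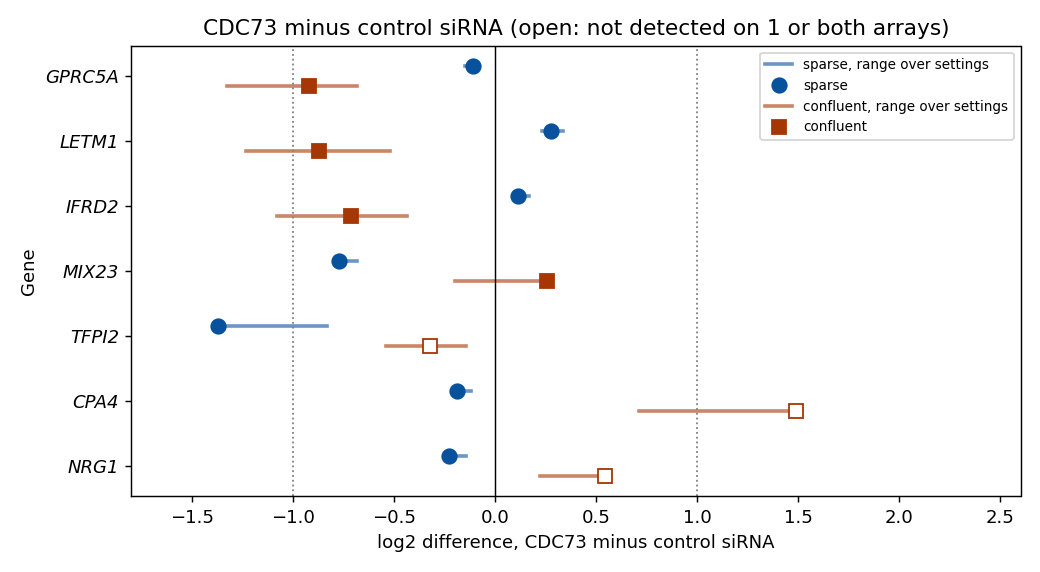
Log2 difference between CDC73 and control siRNA for each gene in sparse (blue circles) and confluent cells (brown squares), with lines for the range over 8 alternative settings, dotted lines at 2-fold and open symbols where 1 or both arrays did not detect the gene. TFPI2 lay lowest in sparse cells, at -1.37, and CPA4 highest in confluent cells, at 1.49 as a value that is not a bound.

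Genes whose pattern over the 4 arrays was most like that of each member were sought among 9047 genes detected on all 4 arrays. The measure was the largest deviation on any array between log2 values centred on each gene's own mean. It used the values as they stand where a member was not detected, for TFPI2 on both confluent arrays and for CPA4 and NRG1 on the confluent array with control siRNA, so the deviations of these 3 rest in part on values not above background. The nearest genes to GPRC5A were LETM1 (0.20) and IFRD2 (0.21), and the nearest to LETM1 were IFRD2 (0.19) and GPRC5A (0.20). For IFRD2 they were SRM, the spermidine synthase (0.15), and LETM1 (0.19). SRM had intensities of 1948 and 1825 in sparse cells and of 886 and 433 in confluent cells with control and CDC73 siRNA, the same order of densities as IFRD2. GPRC5A, LETM1 and IFRD2 thus lay within 0.21 of each other on every array after centring. They were chosen for a fall with density on these same arrays, so likeness among members follows in part from the choice.

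The other 4 members were matched by different genes. MIX23 was nearest to METTL1, a tRNA methyltransferase (0.18), and CHORDC1, a co-chaperone of HSP90 (0.24). TFPI2 was nearest to TAGLN, an actin-binding protein (0.19), and ATF5, a transcription factor (0.31). TAGLN had intensities of 289 and 155 in sparse cells and of 178 and 124 in confluent cells with control and CDC73 siRNA. CPA4 was nearest to DPH3, of diphthamide synthesis (0.29), and PKP2, a desmosome protein (0.29), and NRG1 to PA2G4, an ErbB3-binding protein (0.09), and CCDC124, a ribosome-bound protein (0.10). Between members the largest deviations were those of CPA4 from GPRC5A (1.74) and from LETM1 (1.72). With 4 arrays, profiles this close are a description drawn from a search over all these genes.

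Other genes of the members' pathways were taken from 7 lists with 119 further genes, 108 of them on the array. Over all genes 1.64% were 2-fold lower and 3.86% 2-fold higher with density under control siRNA, and 3.88% and 4.31% under CDC73 siRNA. The lists differed in their direction. Over the 8 alternatives, the median changed sign for the ErbB list with control siRNA and for the mitochondrial ion transport list with CDC73 siRNA, also when taken relative to all genes. The carboxypeptidase, retinoid and intermembrane space medians with CDC73 siRNA changed sign as values, but relative to all genes they stayed between 0.02 and 0.07, 0.07 and 0.20, and 0.0016 and 0.09. The 6 other ErbB ligands and receptors measured with control siRNA had 0 genes 2-fold lower and a median log2 difference of 0.07, and the 7 measured with CDC73 siRNA had 0 lower and a median of 0.32. ERBB3, a receptor for NRG1, was at 0.80 and 1.49 with intensities of 182 and 128 in sparse and of 339 and 228 in confluent cells. Both confluent arrays stood above both sparse ones. The ligand HBEGF was at -0.61 and -0.41 and the ligand NRG4 at -0.40 and 0.77, and EGF at 0.72 and 0.39 was not detected in sparse cells.

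Among the proteins around TFPI2, of the tissue factor pathway and plasminogen activation, 3 of 7 measured genes were 2-fold higher and 0 lower with control siRNA (median 0.34). With CDC73 siRNA 1 of 6 was higher and 0 lower (median 0.73). PLAU, among the higher genes with control siRNA at 1.21, was detected only on the confluent array with control siRNA. It thus counted as measured only through the array where it was high, and it was not measured with CDC73 siRNA. The coagulation factor F10 was at 1.86 and 1.35 and the plasminogen activator PLAT at 1.07 and 0.55, and TFPI, the related inhibitor, at 0.05 and 0.83. The receptor PLAUR was at 0.19 and 0.65. Of the carboxypeptidases and latexin 4 were measured, with 1 gene 2-fold higher and 0 lower with control siRNA (median 0.07) and 0 either way with CDC73 siRNA (median 0.04). CPE, which processes peptide hormones, was at 1.19 and 0.89, CPM at -0.62 and -0.07, CPD at 0.24 and -0.18 and the inhibitor LXN at -0.11 and 0.14.

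Retinoid response and GPRC5 genes had 0 of 9 measured genes 2-fold lower and 1 higher with control siRNA, and 0 of 10 lower and 1 higher with CDC73 siRNA, with medians of 0.21 and 0.16. CRABP2, a retinoic acid-binding protein, was at 0.92 and 0.54, DHRS3, a retinal reductase, at 1.14 and 0.26, CYP26A1, which degrades retinoic acid, at 0.16 and 1.01, and the receptor RXRA at 0.15 and 0.83. Among the genes of mitochondrial ion transport around LETM1, 0 of 13 were 2-fold lower and 1 higher with control siRNA (median -0.11), and 1 of 14 was lower and 1 higher with CDC73 siRNA (median 0.05). LETMD1, which resembles LETM1 in sequence, was at 1.17 and 1.21, and so opposite to it. The prohibitin PHB1 was at -0.89 and -0.92, the channel VDAC1 at -0.36 and -1.08 and SMDT1, a part of the calcium uniporter, at 0.62 and 0.44.

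Most genes on the list of intermembrane space cysteine motif proteins were below 0 with control siRNA. Of 22 measured genes 19 were below 0 and 1 was 2-fold lower, with a median of -0.54, where 48.0% of all genes were below 0 and the median was 0.02. Over the 8 alternatives that median lay between -0.54 and -0.40. With CDC73 siRNA 11 of 22 were below 0, 0 passed 2-fold and the median was 0.03, against 51.8% of all genes. TIMM10, a chaperone of protein import, had intensities of 5081 and 3422 in sparse cells and of 2650 and 2276 in confluent cells, with differences of -1.08 and -0.21. COA4 was at -0.79 and -0.37, TIMM8B at -0.73 and -0.45 and CMC1 at -0.63 and -0.28. Of the ribosome-bound regulators around IFRD2, 2 of 10 were 2-fold lower with control siRNA and 1 of 11 with CDC73 siRNA, none was 2-fold higher in these, and the medians were -0.24 and -0.30. ABCE1, a ribosome recycling factor, was at -1.06 and -1.01, CCDC124 at -1.11 and -0.44, the translation factor EIF5A at -0.92 and -0.50 and the rescue factor PELO at -0.54 and -0.57.

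**Figure D5:**
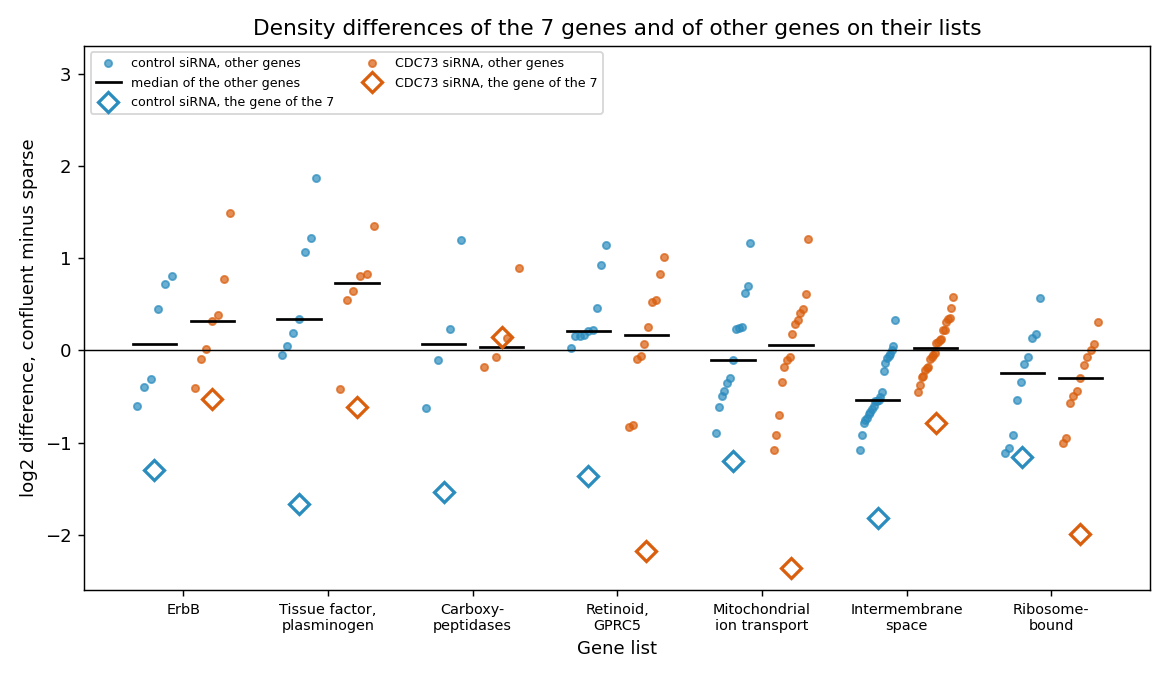
Log2 difference between confluent and sparse cells for the other measured genes of 7 lists (dots) with control siRNA (blue) and CDC73 siRNA (orange), their medians (black lines) and the gene of the 7 on each list (diamonds). The median of the intermembrane space list was -0.54 with control siRNA and 0.03 with CDC73 siRNA.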

How the data were processed

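Total RNA of the 4 groups was amplified to biotin-labelled cRNA for Illumina arrays, per the labels' protocols. The authors deposited probe intensity in linear units, not normalized, per the file headers. A second table holds log2 values deposited for these arrays, with a median of 6.42 on each, and it correlated with log2 intensity at 0.998 to 1.00. Software, processing steps and genome build were not given in the sources used here. Depth is not defined for arrays, and their number limits the precision.

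Of 49576 probes, 48803 had values, and 28098 had 1 gene symbol in the platform annotation, 13 several and 20692 none here. With no detection p in the table, 452 olfactory receptor probes served as negatives. Background was corrected by normexp in limma 3.58.1 (R 4.3.3) with these negatives, an offset of 16 was added, and log2 values were quantile normalized. Each gene was represented by its probe with the highest mean, and counted as measured where at least 1 of the arrays compared detected it. Differences of 2 arrays were described with 2-fold as the limit, and the siRNA effect was fitted with limma and Benjamini-Hochberg adjustment. The fit was run on simulated data whose siRNA effects were the same at both densities apart from noise. That run cannot show how the fit behaves where the effects disagree between densities, as they do here. The members and the lists were chosen with earlier results of these data known. The rule named all members, at most 4 genes per list by the largest mean density difference, and the 2 likest genes per member. The 8 alternatives are named in the closing section.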

Additional observations from a re-analysis of the deposited data

Results flagged for a closer look

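With 1 array a group, the following differences between densities or siRNAs were not tested. The effect of CDC73 siRNA had opposite signs in sparse and confluent cells for 5 of the 7 genes, where 43.4% of 9916 genes did so. Density and siRNA differences share arrays, and the density differences chose the genes, so nothing is read from this count. In sparse cells IFRD2, CPA4 and NRG1 lay within 0.25 of 0, the SD per probe. In confluent cells MIX23, at 0.26, lay within the SD of 0.32. The effect in confluent cells minus that in sparse cells was -1.15 on the log2 scale for LETM1 and -0.83 for IFRD2, and it was 1.03 for MIX23, 1.68 for CPA4 and 0.77 for NRG1. The density difference of CPA4 was -1.54 with control siRNA and 0.14 with CDC73 siRNA, the latter of unsettled direction. The difference between them, 1.68, is the same quantity as its siRNA difference above. CPA4 and NRG1 were below the detection limit in confluent cells with control siRNA. With the arrays scaled to a common median, MIX23 was at -0.20 in confluent cells, which was 0.20 relative to the median of all genes.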

How the results depend on the processing

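The 8 alternatives were the authors' log2 table, background left in, background by maximum likelihood, an offset of 50, median scaling, a looser detection limit (p under 0.05), no detection filter and the mean of a gene's detected probes. The last 3 cannot change the differences of members with 1 detected probe, and 84 differences were as before in them. The looser limit did count TFPI2, CPA4 and the brightest NRG1 probe as detected on every array, so their bounds belong to the stricter limit only. Of 140 differences of 2 arrays recomputed for the members in the other 5, 106 moved by less than the SD between probes and 34 by more. The count of members 2-fold lower with control siRNA went from 7 to 2 without background correction and to 2 in the authors' log2 table, and that with CDC73 siRNA was 3 in both and 4 with median scaling. The count of members changed 2-fold in sparse cells went from 1 to 0 in these settings, and in confluent cells from 1 to 0 in them and with an offset of 50, and to 4 with median scaling. Median scaling moved the median of all genes to 0.22 and -0.25 with density (control and CDC73 siRNA) and to 0.07 and -0.40 with siRNA (sparse and confluent), and relative to these medians the counts were 7, 3, 1 and 1. Over all genes, those 2-fold lower with density under control siRNA went from 168 to 57 without background correction, 77 with an offset of 50, 84 with median scaling, 66 in the authors' log2 table and 108 by maximum likelihood. Under CDC73 siRNA they went from 408 to 146, 203, 853, 172 and 267 in that order. Genes changed 2-fold by siRNA in sparse cells went from 398 to 102, 153, 114 and 218 without median scaling in the order, and in confluent cells from 603 to 229, 308, 1302, 263 and 389. The siRNA fit called 443 genes, 138 with median scaling, and 0 by limma with no detection filter, where 1963 of 18474 genes had an unadjusted p under 0.05. The cause was not tested. No paired analysis was possible because each group has 1 array and the groups share 1 replicate number, so no replicate block could be fitted, and the siRNA fit compared the siRNAs within each density instead. Leaving out a replicate was not possible for the same reason.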

Other observations

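With CDC73 siRNA, the other genes on the list of the intermembrane space cysteine motif proteins were mostly lower in sparse cells and mostly higher in confluent ones. In sparse cells 18 of 22 were below 0, with a median log2 difference of -0.15, where 46.1% of all genes were below 0 and the median was 0.04. In confluent cells 5 of 22 were below 0, 2 were 2-fold higher and the median was 0.24, where 50.2% of all genes were below 0 and 2.28% were 2-fold higher. Both medians were smaller in size than the SD per probe, 0.25 in sparse and 0.32 in confluent cells. Median scaling gave 12 of 22 below 0 and a median of -0.06 in confluent cells, which was 0.34 above that of all genes. CMC1, a cytochrome oxidase assembly protein, was at -0.97 and -0.62, with intensities of 900 and 487 in sparse and of 717 and 342 in confluent cells. These differences share arrays with the density differences of the same genes. VDAC1, the outer membrane channel, had intensities of 9189 and 4115 in sparse and of 7390 and 1578 in confluent cells, and differed by -1.13 and -1.85 between the siRNAs.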
